A study of Mus musculus with 24 samples.

Results

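Mouse embryonic stem cells carrying a short hairpin RNA against Cdk8 were compared with the same cell line carrying a control hairpin, across every gene counted. The comparison holds 6 libraries, 3 labelled shCdk8 and 3 labelled shNMC (a hairpin with no mammalian target), out of 24 libraries analysed in the series, and they were chosen by their titles alone. All 6 are polyadenylated RNA, read as 50-base strand-specific reads, from E14TG2a cells, a line of 129/Ola origin grown without feeder cells in serum with LIF, the cytokine that keeps such cells pluripotent. The hairpins were stably transfected, so every shCdk8 and shNMC cell carries an integrated construct. Neither the number of hairpin sequences or clones nor whether the 3 replicates were separate cultures is given in the labels. The p-values therefore measure only the spread between libraries of a group, in the main fit estimated over all 24 libraries. Other groups enter where named: untransfected mESCs, mESCs with a hairpin against Med12, and shCdk8 and shNMC cells taken off LIF and given all-trans retinoic acid (RA) at 1e-06 M for 24 h, each with 3 libraries. The fit of all 24 libraries also holds mESCs with a hairpin against Ring1b and Med12 hairpin cells given RA, each with 3 libraries.

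Mediator is a large complex that carries signals from transcription factors at enhancers to RNA polymerase II at promoters. Its kinase module, built from Cdk8 or its paralogue Cdk19 with cyclin C, Med12 or Med12l and Med13 or Med13l, binds reversibly, phosphorylates factors such as Smads, STATs and Notch, and can both limit and assist transcription. In embryonic stem cells Mediator occupies the enhancers of pluripotency genes, and the kinase module has been linked to Wnt, Notch and TGF-beta output.

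The 3 shCdk8 libraries held 37808426 to 56995896 gene counts and the 3 shNMC libraries 42757288 to 56544629, so 3 reads, the floor used here, correspond to 0.0542 to 0.0828 CPM (gene counts scaled to a common library size) and 0.0590 to 0.0737 CPM; all CPM values are scaled by TMM. All 10 embryonic stem cell markers fixed for the check exceeded 1 CPM in every shCdk8 and shNMC mESC library. Replicates differed beyond counting noise and none were identical. On the first principal component of the 6 libraries (54.6% of variance) shCdk8 libraries lay between 11.1 and 21.0 and shNMC libraries between -20.3 and -12.9. The untransfected and shRing1b libraries stand apart technically, with 20.0 to 21.7% of their counted total set aside as not uniquely aligned against 44.1 to 49.1% elsewhere, so counts are given both with them in the fit (24 libraries, the design set for this comparison) and without them (18 libraries). Reads that align to several places were not counted, so genes with near-identical copies are uncertain; this touches the Zscan4 and Tcstv families and Rpl39l below.

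Cdk8 itself was measured at 15.2, 12.6 and 10.7 CPM in the shCdk8 libraries, at 54.1, 56.1 and 50.1 CPM with shNMC, and at 50.3, 61.3 and 57.3 CPM in untransfected cells. The 3 shCdk8 values lie below all 6 others. Cdk8 fell by 2.06 on the log2 scale (SE 0.154, adjusted p = 8.77e-08), to 0.240 of its shNMC level. None of the other 6 kinase module genes passed the test with 24 libraries. Cdk19, the paralogous kinase, had 75.5, 71.6 and 64.7 CPM with shCdk8 and 74.9, 84.3 and 69.2 CPM with shNMC, a log2 difference of -0.11 with a 95% interval of -0.33 to 0.11. Ccnc, which encodes cyclin C, differed by 0.05, Med13 by -0.01, Med13l by 0.03, Med12 by -0.20 and the weakly expressed Med12l by 0.32. Of the 26 core Mediator subunits tested, none were called with 24 or 18 libraries. In the 6 libraries alone 1 rose and 1 fell, where 8.97% of all genes rose and 6.75% fell. On the genome, the nearest tested gene before Cdk8 is Rnf6, a RING-type ubiquitin ligase, which was singled out after its values were seen. It was at 66.8, 65.5 and 66.1 CPM with shCdk8 and at 52.0, 51.4 and 51.0 CPM with shNMC, and rose by 0.36 (adjusted p = 0.0223). With the Med12 hairpin Rnf6 rose by 0.35 against the same shNMC libraries (adjusted p = 0.00245). The direct test of shCdk8 against shMed12 did not pass (0.009, adjusted p = 0.949).

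Across the transcriptome most called changes were under 2-fold, and how many genes were called depended on the libraries in the fit. Of 22609 gene symbols in the files, 16280 passed the filter on low counts and were tested, and 596 were called at an adjusted p under 0.05 (3.66% of genes tested, with 2969 at an unadjusted p under 0.05), 365 of them higher (2.24%) and 231 lower (1.42%) with shCdk8. The median change was 0.76 among genes that rose and -0.53 among genes that fell, and 259 of the 596 changed by less than 1.5-fold. At least 2-fold, 111 genes rose (0.682%) and 40 fell (0.246%), and at least 4-fold 16 rose and 4 fell. In 595 of the 596 the 3 shCdk8 libraries did not overlap the 3 shNMC libraries, the exception being Dpep3; over all genes tested, all 3 shCdk8 libraries were above in 17.2% and below in 15.8%. The number called depended on which other libraries shared the estimate of spread: without the untransfected and shRing1b libraries 1517 genes rose (9.36%) and 1128 fell (6.96%), holding all 365 and all 231, and in the 6 libraries alone 1332 rose (8.97%) and 1002 fell (6.75%). Leaving out any 1 of the 6 libraries lowered the counts to between 115 (without shCdk8 replicate 2) and 177 genes that rose and between 55 (without shCdk8 replicate 2) and 105 that fell, and 22 of the 60 called genes named by the fixed rule kept their call each time.

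**Figure D1:**
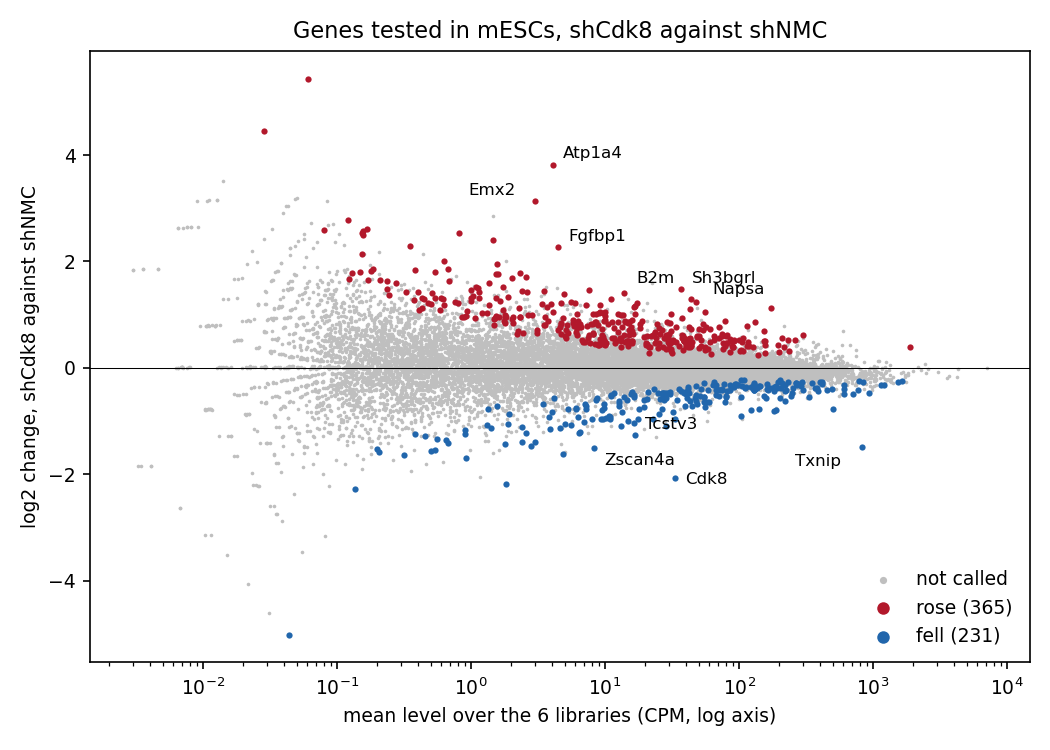
Log2 change between shCdk8 and shNMC mESCs (vertical axis) against the mean level over the 6 libraries in CPM (horizontal log axis), 1 point per gene tested that has a read in these libraries, red for the 365 that rose and blue for the 231 that fell. Most called genes change by less than 2-fold, while Atp1a4, Emx2 and Cdk8 stand out among genes above 1 CPM.

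The largest rise among genes above 5 CPM was that of Atp1a4, the sodium pump catalytic subunit otherwise known from sperm. Its level was 7.43, 7.56 and 7.84 CPM with shCdk8 and 0.519, 0.551 and 0.541 CPM with shNMC, a difference of 3.82 on the log2 scale (SE 0.342, adjusted p = 1.05e-06). The groups are far apart, and untransfected cells, at 0.260, 1.40 and 0.706 CPM, are all far below shCdk8. In the order of genes along chromosome 1 (RefSeq, assembly GRCm38.p6), Atp1a4 follows Pea15a and Casq1, adjacent tested genes that also rose. The second largest rise was that of Emx2, a homeobox factor of the developing forebrain and urogenital system, whose neighbour Emx2os also rose. The promoters of these genes are shown because the genes move together. They are the RefSeq windows of 300 bases, 250 before and 50 after the annotated start, on GRCm38.p6, which is a C57BL/6J reference while the cells are 129/Ola; capitals mark CG dinucleotides, and Emx2os is named only.

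Pea15a, chr1:172206755-172207054, minus strand: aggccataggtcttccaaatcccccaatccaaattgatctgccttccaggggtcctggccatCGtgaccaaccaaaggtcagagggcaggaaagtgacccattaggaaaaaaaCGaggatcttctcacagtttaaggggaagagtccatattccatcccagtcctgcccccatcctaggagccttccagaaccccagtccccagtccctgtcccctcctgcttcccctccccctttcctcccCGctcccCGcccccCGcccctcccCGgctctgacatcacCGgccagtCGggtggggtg

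Casq1, chr1:172219846-172220145, minus strand: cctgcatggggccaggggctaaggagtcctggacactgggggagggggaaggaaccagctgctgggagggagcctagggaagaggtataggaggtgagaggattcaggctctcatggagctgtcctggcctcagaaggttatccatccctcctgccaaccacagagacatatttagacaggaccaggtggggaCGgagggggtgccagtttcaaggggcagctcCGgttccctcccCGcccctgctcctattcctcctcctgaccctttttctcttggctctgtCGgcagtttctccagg

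Atp1a4, chr1:172258375-172258674, minus strand: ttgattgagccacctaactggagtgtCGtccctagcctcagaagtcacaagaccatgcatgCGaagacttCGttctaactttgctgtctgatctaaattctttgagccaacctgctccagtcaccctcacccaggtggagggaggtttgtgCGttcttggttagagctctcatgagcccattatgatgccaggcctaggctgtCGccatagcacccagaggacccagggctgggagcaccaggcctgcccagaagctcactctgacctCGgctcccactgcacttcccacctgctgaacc

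Emx2, chr19:59458440-59458739, plus strand: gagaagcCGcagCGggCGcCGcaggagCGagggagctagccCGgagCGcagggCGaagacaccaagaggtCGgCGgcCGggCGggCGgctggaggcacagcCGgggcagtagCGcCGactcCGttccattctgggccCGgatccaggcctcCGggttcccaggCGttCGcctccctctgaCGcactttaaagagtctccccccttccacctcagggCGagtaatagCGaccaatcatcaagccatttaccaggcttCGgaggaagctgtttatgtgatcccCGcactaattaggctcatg

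The 3 windows of the chromosome 1 genes hold 8 (Pea15a), 4 (Casq1) and 6 (Atp1a4) CG dinucleotides, near the median of 7 over 32851 RefSeq promoter windows of the same length; 48.6%, 68.6% and 56.4% of all windows hold as many or more. The Emx2 window holds 26, a count that 16.9% of windows reach. These counts describe the reference sequence only.

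Pea15a, a death-effector-domain adaptor that binds ERK, was at 24.4, 23.2 and 22.3 CPM with shCdk8 and at 10.9, 9.70 and 10.4 CPM with shNMC, and rose by 1.17 (adjusted p = 0.00401). Casq1, the calcium store protein of skeletal muscle, was at 7.21, 6.94 and 7.26 CPM against 2.91, 2.60 and 2.63 CPM and rose by 1.39 (adjusted p = 0.00401). In none of these 3 genes do the shCdk8 and shNMC libraries overlap. Untransfected replicate 2, at 22.6 CPM for Pea15a and 4.35 CPM for Casq1, lies above the other untransfected libraries. For Pea15a this library without a hairpin falls within the range of the shCdk8 libraries, while the other untransfected libraries were at 8.98 and 9.66 CPM. For Casq1 it lies below every shCdk8 library. The next tested gene before Pea15a, Dcaf8, did not pass (0.22, adjusted p = 0.0649). After RA, the same hairpin raised Pea15a by 1.27, Casq1 by 1.21 and Atp1a4 by 3.35. With the Med12 hairpin, compared with the same shNMC libraries, Pea15a differed by 2.64, Casq1 by 0.51 and Atp1a4 by 3.10. Emx2 was at 5.85, 5.21 and 5.16 CPM with shCdk8 and at 0.561, 0.728 and 0.541 CPM with shNMC, and rose by 3.14 (SE 0.405, adjusted p = 0.000146). Emx2os, its antisense transcript, rose by 2.78 at levels of 0.162 to 0.248 CPM, and whether the counting used strand is not given in the sources used here. With the Med12 hairpin Emx2 remained at 0.669, 0.667 and 0.927 CPM, and the direct test of shCdk8 against shMed12 passed (2.83, adjusted p = 7.50e-06).

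Adjacent calls of this kind were also counted over all chromosomes. Over all genes tested 2.24% rose and 1.42% fell, and the share of adjacent calls expected from that was not computed. Of the 592 called genes placed on a chromosome, 45 (7.60%) had an adjacent tested gene, on either side, called the same way. They included Padi1, Padi2 and Sdhb, side by side on chromosome 4, which all fell. Padi2, a peptidyl arginine deiminase that citrullinates proteins, was at 12.04, 13.5 and 14.03 CPM with shCdk8 and at 23.4, 17.8 and 26.5 CPM with shNMC (-0.77, adjusted p = 0.0325). Padi1 fell by 1.57 from levels under 0.5 CPM. Sdhb, the iron-sulphur subunit of succinate dehydrogenase, was at 116, 107 and 117 CPM against 147, 141 and 160 CPM and fell by 0.40 (adjusted p = 0.00502).

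**Figure D2:**
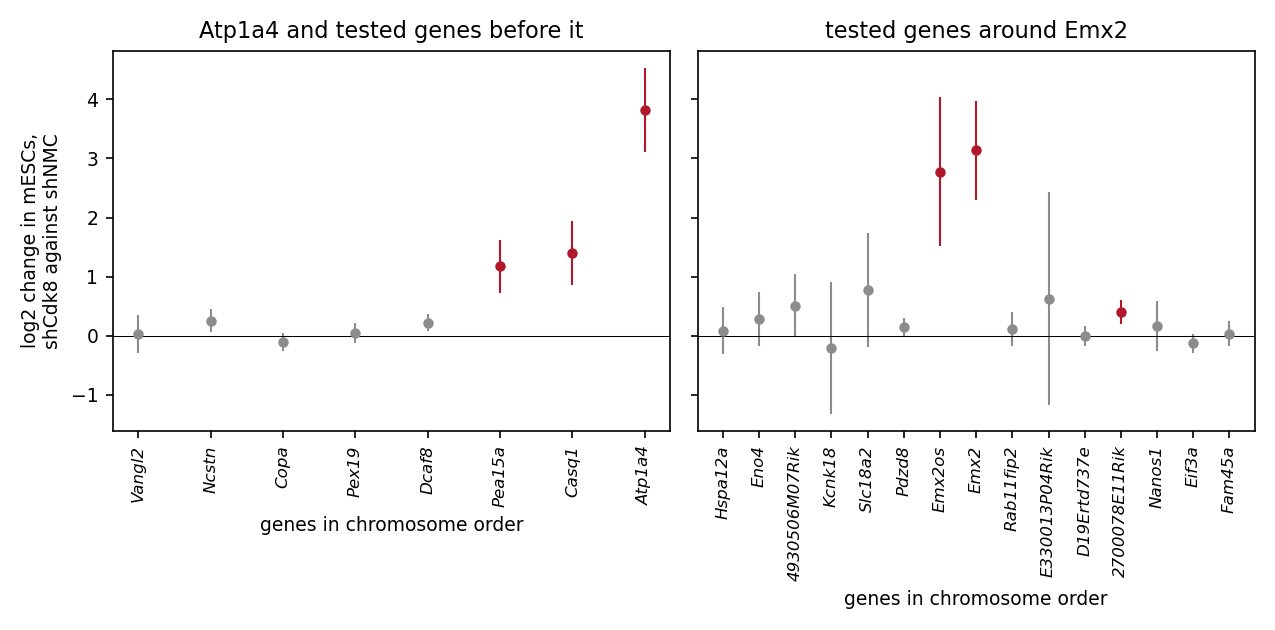
Log2 change between shCdk8 and shNMC mESCs (points) with 95% intervals (bars) for Atp1a4 and the 7 tested genes before it (left) and the 7 tested genes on either side of Emx2 (right), in chromosome order, red where the gene was called higher. Pea15a, Casq1 and Atp1a4 are red side by side, and so are Emx2os and Emx2, with grey genes next to them.

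The other large rises covered secreted, cytoskeletal and immune genes. Fgfbp1, a secreted carrier of fibroblast growth factors, was at 8.56, 6.53 and 7.20 CPM with shCdk8 and at 1.14, 1.89 and 1.598 CPM with shNMC, and rose by 2.26 (adjusted p = 0.00719, and 0.0534 at most when 1 library was left out). Sh3bgrl, a small thioredoxin-fold protein, was at 55.7, 58.2 and 49.9 CPM against 20.8, 19.02 and 18.999 CPM, a rise of 1.48 with an SE of only 0.133. B2m, the light chain of class I MHC, was at 71.5, 63.5 and 49.9 CPM against 25.6, 28.5 and 21.5 CPM and rose by 1.29 (adjusted p = 0.0177); its call ended in 5 of the 6 fits that left out 1 library, with an adjusted p of up to 0.0850. In each of these the lowest shCdk8 library is above the highest shNMC library. Tgfb1i1, a focal adhesion adaptor, rose by 1.23, and Actn2, a muscle alpha-actinin, by 1.23. Lpar6, a lysophosphatidic acid receptor, rose by 1.42, Anxa3, an annexin, by 1.30, and Snx33, a sorting nexin, by 1.45. Napsa, a lysosomal aspartic protease, was at 66.9, 67.5 and 65.4 CPM against 26.1, 28.8 and 29.8 CPM and rose by 1.24. Trim12c, Nlrp4f and Card6, of families that act in innate immunity or in oocytes, rose by 1.46, 1.23 and 1.22.

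Apart from Cdk8, the falls covered polarity, transport and secreted genes. Crb3, an apical polarity protein, was at 3.48, 4.13 and 4.21 CPM against 8.35, 8.66 and 10.3 CPM and fell by 1.205. Fetub, a secreted protease inhibitor, fell by 1.04, and Galnt3, an enzyme of mucin-type glycosylation, by 1.16. Txnip, a thioredoxin-binding protein that responds to glucose, was at 329, 380 and 579 CPM with shCdk8 and at 1406.5, 623 and 1597 CPM with shNMC, and fell by 1.49 (adjusted p = 0.0348). Its levels are uneven within each group, untransfected libraries ranged from 402 to 1621 CPM, and its call ended in 5 of 6 fits that left out 1 library and in the fit of the 6 libraries alone (adjusted p = 0.0595). H19, an imprinted long non-coding RNA, fell by 1.07, Hlf, a bZIP factor of the circadian output, by 1.05, Plac8 by 1.23, and Acan, the cartilage proteoglycan, by 1.01. Slc5a4b of the sodium-glucose cotransporter family, the proton pump subunit Atp6v0a4 and the ribosomal protein paralogue Rpl39l fell by 1.13, 1.10 and 1.08. Of these falls, leaving out 1 library ended the call of Atp6v0a4 in all 6 fits, of Galnt3 and Hlf in 5, of H19 and Slc5a4b in 4, of Plac8 and Rpl39l in 2 and of Acan in 1.

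**Figure D3:**
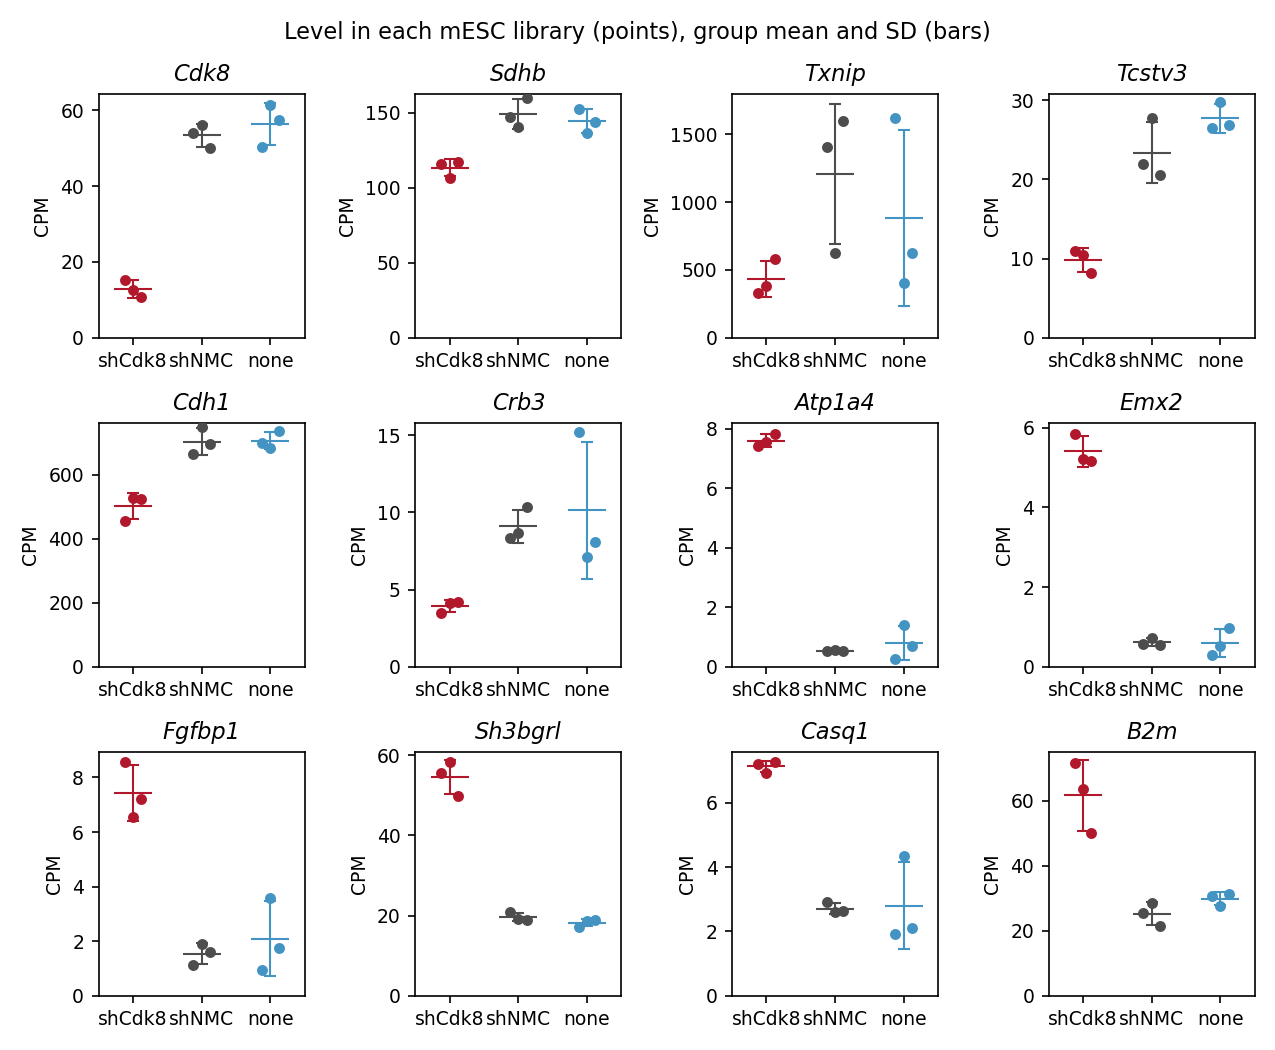
CPM (vertical axes, from 0) in each of the 3 shCdk8, 3 shNMC and 3 untransfected (none) mESC libraries for 12 called genes, with group means and SDs as bars. The 3 shCdk8 points do not overlap the 3 shNMC points in any panel, and the untransfected points lie on the shNMC side except for Txnip, where 1 of them falls among the shCdk8 points.

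Gene lists for pathways and cell types were then read against the background of 2.24% rising and 1.42% falling, and against a median log2 change of 4.2e-05 over all genes; counts given for 18 libraries have a background of 9.36% rising and 6.96% falling. Of 31 members of the pluripotency network tested, none rose and 1 fell (3.23%, against 3.66% of all genes called), with a median of -0.09. Pou5f1, which encodes Oct4, was at 802, 768 and 866 CPM with shCdk8 and at 881, 917 and 936 CPM with shNMC, a difference of -0.17 that did not pass (adjusted p = 0.482). Nanog was at 65.8, 66.2 and 55.3 CPM against 64.7, 65.0 and 57.4 CPM, and its groups overlap throughout. Sox2 differed by -0.03, Zfp42 by -0.19, Klf4 by -0.20 and Esrrb by -0.13, none of which passed with 24 libraries, and the 10 stem cell markers summed to 5391 to 5549 CPM with shCdk8 and 6178 to 6236 CPM with shNMC. The member that fell was Tet2, a 5-methylcytosine oxidase, at 306, 339 and 350 CPM against 446, 463 and 436 CPM (-0.43, adjusted p = 0.0143, and 0.0940 at most when 1 library was left out). Without the untransfected and shRing1b libraries 2 members rose and 2 fell, Gdf3 and Lefty1 higher by 0.41 and 0.59 and Tet2 and Tdgf1 lower by 0.44 and 0.33; in the 6 libraries alone 2 rose and 5 fell. Both TGF-beta ligands and Tdgf1 are named after their values were seen.

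Each signalling list had 1 call or none. In lists with 1 call the share called was 3.45 to 6.25%, against 3.66% of all genes. Among 19 Wnt targets only Tnfrsf19, a TNF receptor family member, was called, at 6.52, 6.45 and 5.98 CPM against 12.9, 12.4 and 11.3 CPM (-0.95, adjusted p = 0.0168). Lef1, the Wnt effector, was at 2.73, 2.66 and 2.27 CPM against 7.27, 6.94 and 6.37 CPM and just missed the threshold (-1.43, adjusted p = 0.0501); it passed with 18 libraries, where 2 Wnt targets rose and 3 fell. Of 14 Notch targets none were called (4 at an unadjusted p under 0.05), and with 18 libraries 2 rose and 1 fell. Lef1 was named after its values were seen. Of 18 TGF-beta, Nodal and BMP targets Smad6, an inhibitory Smad, rose by 0.67 (adjusted p = 0.0361, lost in every fit that left out 1 library). Of 16 LIF and Stat3 genes Socs2, a feedback inhibitor of cytokine signalling, rose by 0.53, and of 20 genes of FGF and ERK feedback Spred1, an inhibitor of Ras signalling, rose by 0.44 (adjusted p = 0.0477). Leaving out 1 library ended the call of Spred1 in all 6 fits, that of Tnfrsf19 in 5 and that of Socs2 in 4, and Spred1 also missed with median-ratio size factors (adjusted p = 0.0502). Fgfr2, a receptor of the last list, was at 22.4, 22.9 and 18.5 CPM against 10.8, 11.1 and 8.63 CPM without passing (1.06, adjusted p = 0.0666), and the list had 6 rises and no fall with 18 libraries; Fgfr2 was also named after its values were seen. The 29 interferon genes had 1 rise, B2m, and a median of 0.34. None were called among 24 p53 targets, 23 immediate early and serum genes, 7 CDK inhibitors or 23 genes of the retinoic acid response, although with 18 libraries 7 of these 23 rose and none fell.

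Metabolic, cell cycle and adhesion lists each had 1 to 3 calls, where 3.66% of all genes were called. The share called was 6.67% for oxidative phosphorylation, 6.25% for the cell cycle and 6.67% for transcriptional kinases. It was 3.57% for the hypoxia list, 3.85% for the integrated stress response and 10.7% for adhesion. Of 30 genes of oxidative phosphorylation 2 fell, among them Sdhb, and none rose. Of 32 cell cycle genes, Ccnb2, the mitotic cyclin, rose by 0.39 (adjusted p = 0.00302) and Cdc25b, the phosphatase that activates Cdk1, by 0.38. Among 15 transcriptional kinases and cyclins, Cdk11b, a kinase tied to splicing, fell by 0.28 (adjusted p = 0.0164). Slc2a3, a glucose transporter of the hypoxia list, rose by 0.40 (adjusted p = 0.0499, and 0.0518 with median-ratio size factors). Slc7a11, the cystine importer, rose by 1.19 among 26 genes of the integrated stress response. Of 28 adhesion genes, Cdh1, E-cadherin, was at 454, 526 and 523 CPM against 665, 748 and 694 CPM and fell by 0.49, Dsp, desmoplakin, fell by 0.64, and Itgav, an integrin chain, rose by 0.40. Left-out libraries ended the call of Slc2a3 in 6 of 6 fits, of Cdk11b in 5, of Cdc25b and Slc7a11 in 4, of Cdh1 and Itgav in 2 and of Sdhb in 1. Of 22 genes of the Myc and ribosome list none were called, with a median of -0.19, and with 18 libraries 5 fell and none rose.

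Among genes of other cell fates, most calls were in fibroblast and smooth muscle genes (23.8% called, against 3.66% of all genes). In the list of fibroblast and smooth muscle genes, 5 of 21 tested rose and none fell: Col5a2 by 1.30, Cav1 by 2.59, Myl9 by 1.27, Acta2 by 2.53 and Col6a1 by 1.12. When 1 library was left out, Myl9 and Acta2 lost the call in all 6 fits, Cav1 in 4 and Col5a2 in 2; Acta2 also lost it without a filter on low counts (adjusted p = 0.0624), and Cav1 differed by 3.42 without shNMC replicate 1. All were scarce: Col5a2 was at 0.828, 1.11 and 0.704 CPM against 0.291, 0.492 and 0.270 CPM, Acta2 at 1.27, 1.17 and 1.68 CPM against 0.291, 0.157 and 0.270 CPM, and Cav1 rested on 20 reads against 3, 6.72 times as many with a 95% interval from counting of 1.99 to 35.3. The fibroblast markers fixed for the check summed to 24.5 to 25.7 CPM with shCdk8 and 16.6 to 19.4 CPM with shNMC. Of these 11 markers, 3 were above 1 CPM in every shCdk8 and shNMC mESC library and 2 at 0 in every shCdk8 library. Most of the sum was Thy1, Pdgfrb and Tagln. The whole list summed to 2447.3 to 2870.5 CPM with shCdk8 and 2549.5 to 2961.8 CPM with shNMC, ranges that overlap. The markers' part in the rises was not tested, and in bulk RNA more cells of a type and more RNA per cell cannot be told apart. The 27 genes of the extraembryonic endoderm, an early lineage that arises at low frequency in such cultures, had no call with 24 libraries (4 at an unadjusted p under 0.05) but a median of 0.52, and in 19 of them the 3 shCdk8 libraries were all above the 3 shNMC libraries, against 17.2% of all genes. Gata6, the factor that specifies it, was at 10.4, 9.62 and 7.02 CPM with shCdk8 and at 3.88, 4.96 and 3.96 CPM with shNMC, and Sox7 at 8.86, 8.07 and 7.02 CPM against 3.28, 4.48 and 2.999 CPM. Neither passed with 24 libraries (adjusted p = 0.210 and 0.312), both passed with 18 (0.000279 and 0.000124), and with 18 libraries 15 of 26 endoderm genes rose and none fell, including Dab2, Pdgfra and Col4a1; these names were chosen after their values were seen. The endoderm markers summed to 325 to 345 CPM with shCdk8 and 249 to 297 CPM with shNMC. Among 16 neural genes Pax6, an eye and forebrain factor, was at 39.5, 38.9 and 38.4 CPM against 23.8, 20.9 and 20.5 CPM and rose by 0.84 (adjusted p = 0.0312), a call lost in all 6 fits that left out 1 library (0.0745 to 0.116). Of 21 primitive streak and mesoderm genes and 14 trophectoderm genes none were called.

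The 2-cell-like state, in which a small share of stem cells transiently expresses genes of the cleavage embryo, gave mostly lower values. Of 18 genes tested, 16 were lower with shCdk8, with a median of -1.07, and 1 was called (5.56%, against 3.66% of all genes). The called gene was Tcstv3, at 10.9, 10.4 and 8.14 CPM against 21.9, 27.7 and 20.5 CPM (-1.25, adjusted p = 0.0419). Zscan4a, a telomere-associated factor of that state outside the list, was at 5.08, 4.60 and 3.27 CPM against 11.2, 14.97 and 10.3 CPM and fell by 1.505 (adjusted p = 0.0478). Tcstv3 and Zscan4a each lost the call in all 6 fits that left out 1 library and without a filter on low counts. With 18 libraries 7 of 17 fell, among them Tcstv1, Zscan4c, Zscan4d and Zscan4f, while Pramel6 and Pramel7 rose. The 5 markers of the state summed to 16.3 to 21.0 CPM with shCdk8 and 38.2 to 53.3 CPM with shNMC, while the whole list, led by its abundant members, summed to 387 to 476 CPM and 429 to 548 CPM, ranges that overlap. Fewer such cells and less RNA per cell cannot be told apart.

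Among Polycomb and developmental genes, 4.84% of developmental transcription factors and 5.26% of Hox genes were called, against 3.66% of all genes. For germline, imprinted and DNA methylation genes the shares called were 8.33%, 7.69% and 15.4%. Of 21 PRC1 genes, 11 PRC2 genes and 14 replication-dependent histones none were called. With 18 libraries 2 PRC1 genes rose, near that background, and 4 fell. Of 62 developmental transcription factors, 1 rose, Pax6, and 2 fell, among them Nkx2-5, a cardiac homeobox factor near the floor (by 2.26). Without shNMC replicate 3 Nkx2-5 differed by -1.52 (adjusted p = 0.246), and it lost the call in 4 of 6 such fits. Of 38 Hox genes 2 fell, Hoxc4 by 1.63 and Hoxa4 by 1.23, both under 1 CPM in all 6 libraries, and the list median was -0.52, or -0.37 with the 5 genes at the floor set to their bound. Hoxa4 lost the call in all 6 fits that left out 1 library and without a filter on low counts (adjusted p = 0.0598), and Hoxc4 in 4 of the 6. With 18 libraries 6 of 37 Hox genes fell and none rose. Among 24 germline genes Sohlh2, a helix-loop-helix factor of early germ cells, was at 79.7, 75.7 and 67.8 CPM against 36.2, 35.4 and 36.7 CPM and rose by 1.04 (adjusted p = 0.000933), while Dpep3 fell by 1.23. Of 26 imprinted genes Mirg, a microRNA host transcript of the Dlk1-Meg3 region, rose by 0.88 and H19 fell; left-out libraries ended the call of Mirg in 6 of 6 fits, of H19 in 4 and of Dpep3 in 5. Of 13 DNA methylation genes, Mbd2, a reader of methylated DNA, was at 33.9, 36.5 and 33.7 CPM against 22.2, 22.6 and 23.0 CPM and rose by 0.62 (adjusted p = 0.00524), and Tet2 fell.

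**Figure D4:**
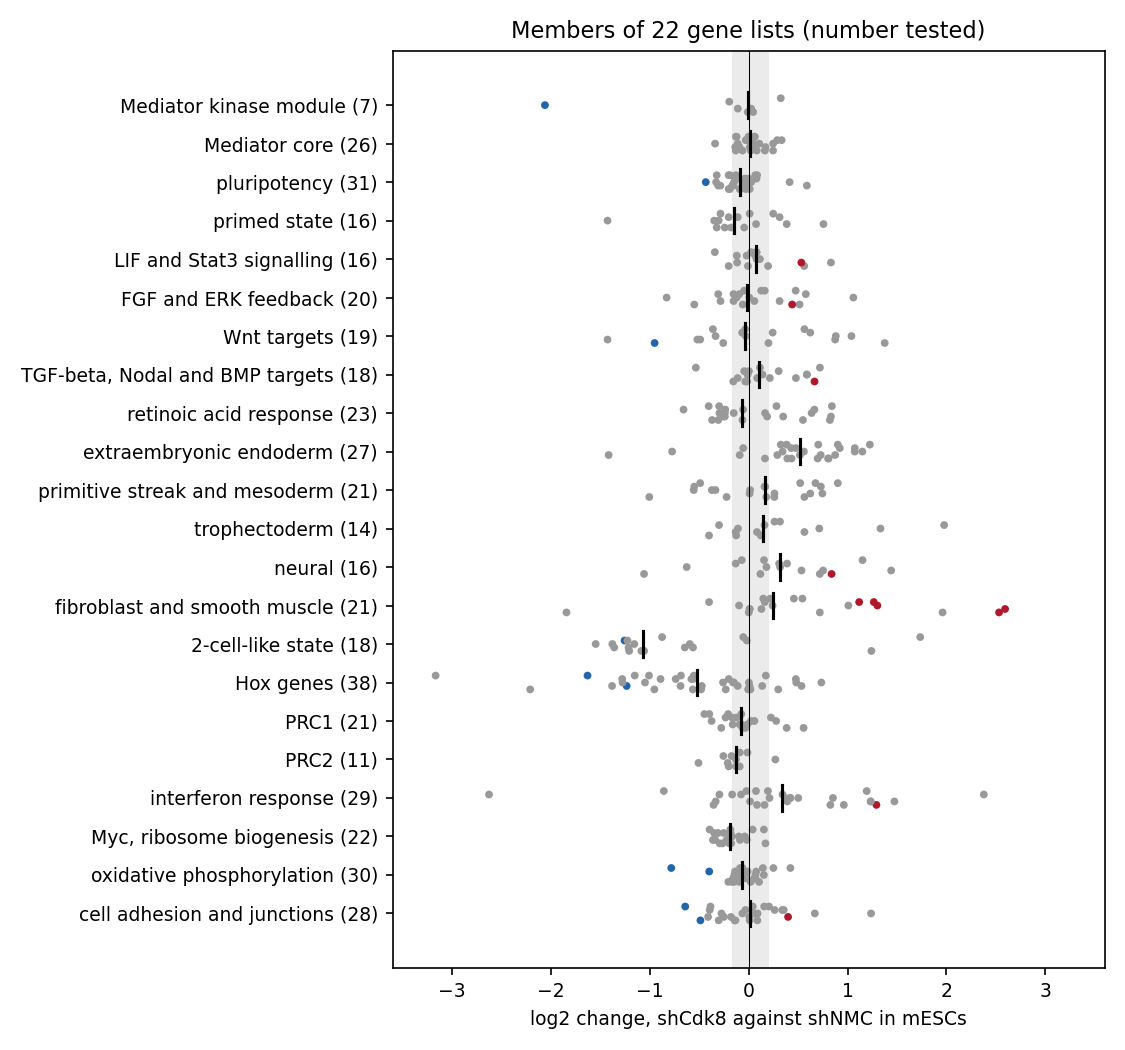
Log2 change between shCdk8 and shNMC mESCs (horizontal axis) of every tested member of 22 gene lists, red or blue where called, with each list's median as a black bar and the middle 50% of all genes as the grey band. The medians farthest from the band are those of the endoderm list to the right and the 2-cell-like and Hox lists to the left, and the Mediator lists hold no coloured point other than Cdk8.

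The same hairpin was next compared with the control hairpin in cells given RA. After RA 667 genes rose (4.1%) and 592 fell (3.64%), 1259 in all (7.73%); with the replicate numbers as a block, which pair these libraries, the 6 RA libraries alone gave 3946 and 3964. Of the 596 genes called in mESCs, 583 had the same direction after RA, against 74.4% of all genes tested, and 357 were called in the same direction, 59.9% of the mESC calls and 28.4% of the RA calls. None were called in opposite directions. The change after RA was the smaller one for 416 of the 596, which were chosen by their mESC values, and the median ratio of the RA to the mESC log2 change was 0.82. A test of the difference itself passed for 6 genes (0.0369%), with 493 genes at an unadjusted p under 0.05, for 67 genes with 18 libraries and for 11 with the replicate block. Only 1 of the 6, Ptpn13, a protein tyrosine phosphatase, was among the 596: with shCdk8 it was at 34.6, 38.8 and 38.8 CPM in mESCs against 56.8, 55.2 and 59.9 CPM (-0.62, adjusted p = 0.00171), and after RA at 94.7, 106 and 97.4 CPM against 87.0, 88.5 and 88.0 CPM. Klf2, a naive pluripotency factor, did not pass in mESCs (-0.03) and after RA was at 46.2, 42.5 and 52.4 CPM against 131, 129 and 99.8 CPM. Among the pluripotency reference genes, Nanog differed by 0.00 in mESCs and fell by 0.71 after RA, and Esrrb by -0.13 and -0.995, but for neither did the difference between states pass (adjusted p = 0.9999 for both).

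**Figure D5:**
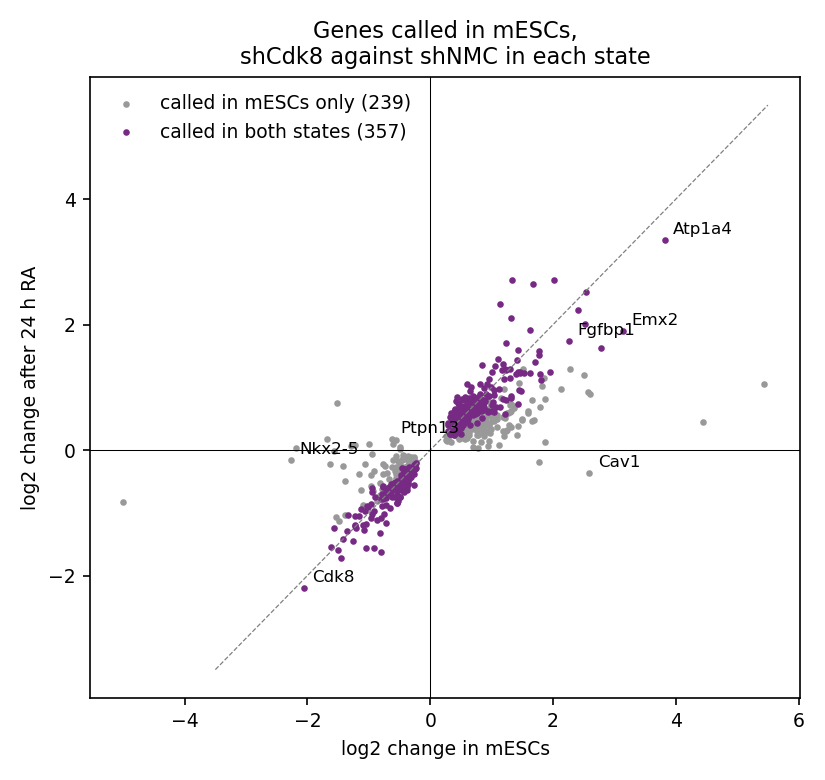
Log2 change between shCdk8 and shNMC after 24 h of RA (vertical axis) against that in mESCs (horizontal axis) for the 596 genes called in mESCs, purple for the 357 called in both states and grey for the other 239, with the line of equal change dashed. Nearly all points lie in the 2 quadrants of equal sign, with Cav1 among the exceptions.

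Last, the Cdk8 hairpin was set against the hairpin for Med12, another subunit of the same module, in a direct test that leaves out shNMC. Between these hairpins 2839 genes were higher (17.4%) and 2994 lower (18.4%) with shCdk8, 5833 in all (35.8%), and the replicate block in the 6 libraries alone gave 5094 and 5173. Large differences toward shCdk8 were those of Aqp8, Srgn, Cubn and Slc11a1 (8.94, 6.45, 5.25 and 4.76), and toward shMed12 those of Col3a1, Cav1 and Tnc (-7.41, -6.31 and -6.09), and of these 7 Cav1 alone was called with shCdk8 against shNMC in the 24-library fit, while Aqp8, Srgn and Cubn passed with 18 libraries (adjusted p = 0.000123, 0.00173 and 0.0407) and in the 6 libraries alone. Some of these sizes rest on few reads in 1 group: with shCdk8, Col3a1 had 1, 1 and 3 reads and Cav1 20 in all. The Aqp8 difference ranged from 8.40 to 10.85 when 1 library was left out. Cdk8 was 2.12 lower than with shMed12 and Med12 1.48 higher. The Cdk8 and Med12 comparisons share the 3 shNMC libraries, so only each one's own values are set side by side: against shNMC, Sh3bgrl differed by 1.48 with shCdk8 and 1.87 with shMed12, Napsa by 1.24 and -2.52, and Crb3 by -1.205 and 1.13. Pou5f1 differed by -0.17 and -0.51, Klf4 by -0.20 and -1.84, and Tet2 by -0.43 and -1.86. For Klf4 (adjusted p = 1.79e-09), Napsa (3.16e-10) and Crb3 (1.41e-07) the direct test of the 2 hairpins passed.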

How the data were processed

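The files are raw counts of reads per gene symbol, 1 file per library, deposited by the authors. The submitters' processing notes name bcl2fastq 1.8.4, STAR 2.3.1z13, SAMtools 1.2, HTSeq 0.6.1p1, DESeq2 1.6.3 and build mm9; the sources used here do not give the annotation or the strand setting. Lines that name no gene were left out of totals and tests (9.55 to 10.3% without a feature, 45.9 to 49.1% not uniquely aligned in the 6 libraries of the main comparison). Counts were tested with edgeR 4.0.16 (R 4.3.3): filterByExpr at a minimum count of 10, TMM scaling, 1 coefficient per group over 24 libraries, the robust quasi-likelihood F test and Benjamini-Hochberg adjustment over all genes, with calls at an adjusted p under 0.05. SEs are the log2 change divided by the root of F, and intervals are at 95%. The test was checked on simulated data. The alternatives tried were DESeq2 1.42.0, other scaling and filters, 18 or 6 libraries, a replicate block and leaving out each library. Called genes are placed by symbol or synonym on RefSeq GRCm38.p6 for neighbour order only (16171 of 16280 tested). Intervals of read ratios and floors (3 reads, over the group) cover counting error only.

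Whether equal replicate numbers pair libraries was read from the correlation of their deviations from group means: 0.67, 0.43 and 0.68 between shCdk8 and shNMC after RA, and 0.43, 0.33 and 0.55 between shCdk8 and shMed12 in mESCs, all over 0.1 and so read as pairs, but -0.12, 0.27 and 0.59 between shCdk8 and shNMC in mESCs, which were not. Only the replicate-block fits use the pairs. All log2 changes and adjusted p-values of the main tests, also after RA and against shMed12, come from the unpaired fit. The labels do not say what a number marks.

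Named genes are the 7 kinase module genes, the 15 largest called rises and falls with a mean of at least 5 CPM in a group and no overlap, in each list the 4 called members of lowest p, 6 reference genes, and the 4 largest differences per direction of the other tests (the overlap criterion cannot be applied to the difference between states). The members and lists were chosen with earlier results of these data known. Some results that this rule selects are not reported here.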

Additional observations from a re-analysis of the deposited data

Results flagged for a closer look

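In 6 genes the effect of the Cdk8 hairpin differed between RA-treated cells and mESCs by the test of the difference itself (log2 change after RA minus log2 change in mESCs, edgeR's quasi-likelihood test). Sulf1, a heparan sulphate 6-O-endosulfatase, differed by 1.09 (adjusted p = 0.00156): it did not pass in mESCs (0.18), and after RA it was at 88.9, 93.0 and 85.3 CPM with shCdk8 and at 39.7, 37.8 and 33.1 CPM with shNMC. Ddx58, the RNA sensor RIG-I, differed by 1.13 (adjusted p = 0.00583), with 25.6, 24.5 and 24.1 CPM against 8.70, 8.57 and 8.92 CPM after RA. Klf2 differed by -1.32 (adjusted p = 0.00583). These 3 kept the call when any 1 of the 12 libraries was left out. Pcdh1, a protocadherin, differed by 1.36 (adjusted p = 0.0345), which was lost in 10 of 12 such fits, with an adjusted p of up to 0.180. Il17rd, a feedback inhibitor of FGF signalling, differed by 0.68 (adjusted p = 0.0407). Ptpn13 differed by 0.79 (adjusted p = 0.0407), lost in all 12, with an adjusted p of up to 0.195. Il17rd was not among the genes refitted without single libraries.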

How the results depend on the processing

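Each alternative below, except the replicate block, was run on every comparison it applies to, and no called result reversed. Leaving out the untransfected and shRing1b libraries (18 libraries) gave 1517 rises and 1128 falls for shCdk8 in mESCs, 256 and 102 at 2-fold, 86 and 67 among list members, 2019 and 1741 after RA, and 67 genes for the difference between states. The 6 libraries alone gave 1332 and 1002, with 225 and 91 at 2-fold and 91 and 69 among list members, and 1522 and 1222 after RA. DESeq2 gave 652 and 499, with 70 falls at 2-fold, 33 and 31 list members, and 27 genes for the difference between states. Other scaling and filters kept counts within 1.5 times. The cause of these differences was not tested.

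The replicate block over 24 libraries gave 525 rises and 380 falls, with 67 falls at 2-fold, 29 and 27 list members and 11 genes for the difference. In the 6 mESC libraries alone it gave 2143 and 1973, with 248 and 106 at 2-fold and 133 and 132 list members. Pou5f1, Zfp42, Klf4 and Med12 were then lower at adjusted p = 0.0401, 0.0400, 0.0160 and 0.0386. In the paired comparisons the block gave 3946 and 3964 after RA and 5094 and 5173 against shMed12. In mESCs shCdk8 replicate 1 correlated best with shNMC replicate 2 (0.43), so not every library matched its own number.

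Leaving out 1 library at a time, which leaves 1 arm with 2 samples, gave 115 to 177 rises and 55 to 105 falls, 40 to 69 and 11 to 23 at 2-fold, 4 to 8 and 4 to 10 list members, 3 to 6 genes for the difference, and 289 to 495 rises and 193 to 475 falls after RA. Of 60 called named genes, 38 lost the call at least once and 12 each time. Depth limits genes under 0.1 CPM, which rest on a few reads per library.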

Other observations

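Several gene groups were assembled after the called genes had been seen, so their counts describe the data and test nothing. Over all genes tested with 24 libraries, 2.24% rose and 1.42% fell. Of 29 genes of elastic fibres and matrix crosslinking 11 rose and none fell, with a median of 0.57: Fbn2, a fibrillin, was at 11.6, 13.003 and 12.2 CPM with shCdk8 and at 6.25, 4.82 and 6.66 CPM with shNMC (1.06, adjusted p = 0.000207), and Adamts1, a matrix protease, at 4.14, 4.06 and 3.63 CPM against 1.22, 1.14 and 1.254 CPM (1.71). Thbs2 rose by 1.77, the lysyl oxidase Loxl3 by 1.31 and the abundant Fstl1 by 0.63. Of 51 genes of the contractile apparatus and focal adhesions 12 rose and none fell, among them Parvb (0.56), Fhl1 (0.61), Synpo2l (1.53) and Acta1 (2.28). The sum of the fibroblast markers was higher with shCdk8, while sums over the whole fibroblast list overlapped, as given above. The markers' part in these rises was not tested.

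Of 47 lysosomal genes 7 rose and none fell. Lamp2, a lysosomal membrane protein, was at 206, 191 and 173 CPM against 122, 118 and 114 CPM (0.69, adjusted p = 0.00636). Naaa, a lysosomal amidase, rose by 1.0001, the acid lipase Lipa by 0.59, Acp2 by 0.49 and the sphingomyelinase Smpd1 by 0.50. With 18 libraries 21 of the 47 rose and none fell, where 9.36% of all genes rose and 6.96% fell. Of 27 autophagy genes Map1lc3b (0.53), Gabarapl1 (0.57) and Rragd (0.76) rose and Atg13 fell by 0.42. The cholesterol exporter Abca1 was at 157, 174 and 175 CPM against 93.2, 97.1 and 88.8 CPM (0.86, adjusted p = 0.0160).

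In the other direction, 8 of 40 genes of nucleolar ribosome assembly fell and none rose, by small amounts, with a median of -0.20. Ddx21, a nucleolar helicase, was at 663, 692 and 629 CPM against 866, 966 and 797 CPM (-0.41), and Ddx27, Rrp1b, Nsun2 and Ebna1bp2 fell by 0.44, 0.42, 0.40 and 0.38. The 3 PAR bZIP factors of the circadian output fell together, Hlf by 1.05, Dbp by 0.57 and Tef by 0.56, while Arntl2 and Nr1d2 rose by 1.09 and 0.36. A few calls rest on a handful of reads: Gpr81 had 16 reads with shCdk8 and none with shNMC, at least 5.38-fold higher at the floor of 3 reads over the group, and Abcg8 had 8 and none.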
